A study of Trichechus manatus latirostris with 11 samples.

Results

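Genes of the RNA splicing machinery were examined in buffy coat RNA (the leukocyte-rich band between plasma and red cells) of Florida manatees. The members were the rows of the deposited expression table whose RefSeq symbol begins with SRSF, HNRNP, SF3A, SF3B, U2AF, SNRP, LSM or PRPF, with a number where the family is numbered. This gave 76 rows of 61 genes, out of 15298 rows in all, of which 10080 carried a symbol. The RefSeq table of the TriManLat1.0 assembly holds 78 symbols of this kind, and the 17 others were not analysed here. A row is 1 RefSeq transcript record, and 13 genes had several.

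The study compared 4 adult manatees of the red tide group, treated at Lowry Park Zoo (ZooTampa) for illness from a toxic algal bloom, with 7 adult control manatees. Of the red tide animals, 2 were sampled on arrival and 2 after a week of treatment, which a group mean does not separate. Of the controls, 2 were sampled in the Indian River Lagoon, 4 in Crystal River, and 1 at the zoo while it recovered from pneumonia. The libraries were made after depletion of ribosomal and globin RNA. For the red tide group the study describes buffy coats frozen at once, while for each animal it also describes RNAlater. Of the controls, 1 shared the zoo with the red tide group, but means over a whole group cannot be split by place, date or storage, so the part of these cannot be told apart from that of the group. The table gives no value of a single animal. It gives a mean normalized count (reads divided by a library's size factor, which stands for its relative depth) over 4 libraries and over 7 libraries. The columns do not name the groups. Their sizes match the red tide group and the control group, and the title of the deposited table names red tide first and 7 others second. The study's text, however, describes genes with a higher 7-library mean, CXCR1, CXCR2 and MMP9 among them, as raised in the red tide group, which is the reverse of what the group sizes give. Which mean is that of the red tide animals is therefore not settled here, and no direction below should be read as one of red tide against control. The means are called the 4-library mean and the 7-library mean. A log2 ratio is the 4-library mean over the 7-library mean, so that positive values are higher in the 4-library mean.

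Introns are removed from new transcripts by the spliceosome, which is built from small nuclear ribonucleoproteins (snRNPs) and many further proteins. Serine/arginine-rich (SR) proteins, the SRSF genes, bind exons and help to recruit the spliceosome. Heterogeneous nuclear ribonucleoproteins (hnRNPs) coat new transcripts and often oppose exon use. Sm proteins (SNRP genes) and Lsm proteins (LSM genes) form rings on the small nuclear RNAs, and leukocytes change splice forms of many genes when they are activated.

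Of the 76 rows, 57 (75%) had the higher value in the 4-library mean, against 56.4% of all rows. The 4-library mean was higher by 1.5-fold or more in 32 member rows (42.1%), and 33.8% of all rows passed this fold in the same direction. The 7-library mean was higher by 1.5-fold or more in 6 member rows (7.89%), against 20.2% of all rows. The median log2 ratio was 0.34 over the members and 0.14 over all rows, and on a scale centred on the latter it was 0.20. At a fold of 2 there were 15 member rows (19.7%) in the first direction and 2 (2.63%) in the second, and both shares were under those of all rows, 23.9% and 10.4%. Weakly counted rows hold many of the large ratios in the table. Among rows with an overall mean of at least 10, 28 of 64 members (43.8%) were higher in the 4-library mean by 1.5-fold or more and 4 (6.25%) in the 7-library mean, against 22.8% and 21.6% of the 10225 rows at that level. Their median log2 ratio was 0.37, and that of the 10225 rows was -0.01. At a fold of 2 and this level there were 12 members (18.8%) and 0, against 12.3% and 9.59%. At an overall mean of at least 100 the members past the fold numbered 19 and 1 of 41, and the shares of all such rows were 18.5% and 20.5%. At a fold of 2 these were 8 members (19.5%) and 0, against 8.76% and 8.09%. These shares are descriptions, since the group means carry no replicate error.

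**Figure D1:**
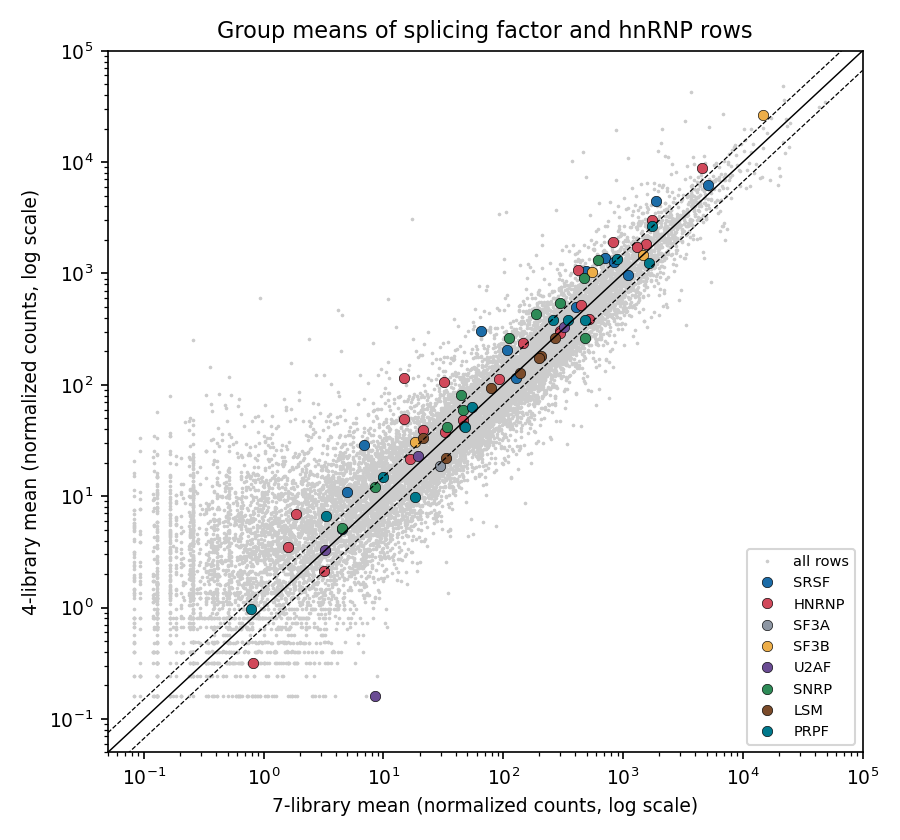
The vertical axis gives the 4-library mean and the horizontal axis the 7-library mean in normalized counts, both on log scales. Grey points are all 15298 rows and coloured points the 76 member rows by class, the solid line marks equal means and the dashed lines a fold of 1.5. Of the member rows, 32 lie above the upper dashed line and 6 below the lower one.

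Marker genes of blood cells differed between the same means. All 9 neutrophil markers with a row (of 13 listed) were lower in the 4-library mean by 2-fold or more. Their median log2 ratio was -2.70 and their summed level was 2179 against 12647 normalized counts. CXCR1, CXCR2 and MMP9, the genes that leave the assignment of the means unsettled, are among the 9. All 6 platelet markers with a row (of 8 listed) were higher in the 4-library mean, 5 of them by 2-fold or more. Their median was 1.74 and their summed level 15280.4 against 4429. Summed levels were 2221 against 2567 for 4 monocyte markers, 3809 against 3766 for 4 T cell markers, 770.4 against 771 for 3 B cell markers, 6.95 against 5.41 for the NK cell marker PRF1, and 182 against 486 for 2 erythroid markers. No marker with a row was at 0. In RNA of mixed cells, fewer cells of a type and less RNA per cell cannot be told apart. The part of cell makeup in the results on splicing genes was not tested.

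The median ratio varied by class. The median log2 ratio was 0.94 over the 13 SRSF rows, 0.87 over the 11 SNRP rows, 0.82 over the 4 SF3B rows, 0.39 over the 24 HNRNP rows and 0.25 over the 12 PRPF rows. It was 0.04 over the 4 U2AF rows and -0.11 over the 7 LSM rows. SF3A had a single row, at -0.67. Centred on the median of all rows, the U2AF median turned to -0.10 and the others kept their signs.

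**Figure D2:**
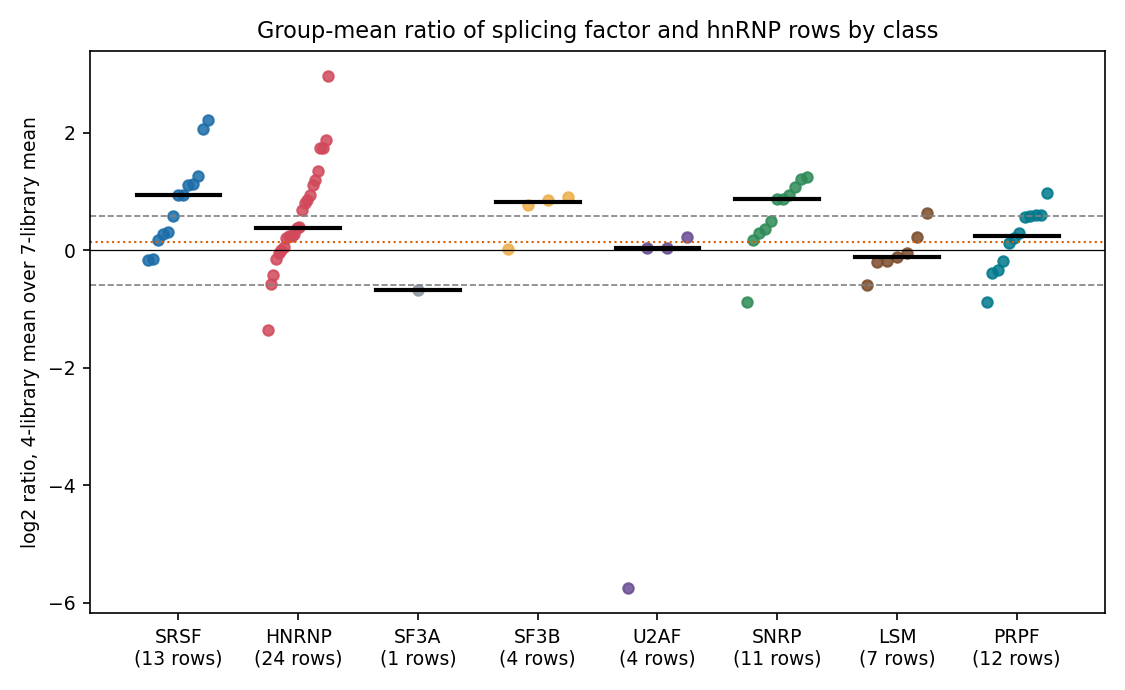
Each point is a member row, placed by class, with its log2 ratio (4-library over 7-library mean) on the vertical axis. Black bars are class medians, dashed lines a fold of 1.5 in either direction, and the dotted line the median of all rows at 0.14. The SRSF, SNRP and SF3B medians lie above the upper dashed line, and a single U2AF1 row lies at -5.74.

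Of the 13 SRSF rows, 7 (53.8%, against 33.8% of all rows) were higher in the 4-library mean by 1.5-fold or more. None (against 20.2% of all rows) was higher in the 7-library mean by this fold, and 6 lay between. SRSF5, which belongs to the SR proteins with paired RNA-binding domains, had the highest ratio. Its main row (XM_004370987) had a 4-library mean of 302 normalized counts and a 7-library mean of 65.1, a log2 ratio of 2.21. SRSF6, which is known for regulating the exons of tau, had means of 4493 and 1877 (log2 ratio 1.26). SRSF7, an SR protein with a zinc knuckle, had means of 1055 and 487 in its main row XM_004369543 (1.12). The main row of SRSF10, a splicing repressor when it is dephosphorylated (XM_004377117), had means of 1375 and 714 (0.95), and SRSF12 had means of 207 and 108 (0.94). SRSF3, a small SR protein, lay just under the fold of 1.5, with 1261 and 841 (0.58).

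Further SRSF genes lay close to equal means. SRSF1, the classical SR protein also known as a proto-oncogene, had means of 6234 and 5107 (log2 ratio 0.29), and SRSF9 had 503 and 404 (0.31). SRSF4 was lower in the 4-library mean, with 972 against 1094 (-0.17). The SRSF rows thus ranged from -0.17 to 2.21.

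Both SRSF5 rows and both SRSF7 rows had similar ratios, and the weaker row of each gene could be followed in single libraries. Where a group mean is low, a single combination of whole reads gives it, and the reads of each library can be recovered. The 4 libraries are named by their size factors of 1.56, 1.03, 0.620 and 0.372, in that order in each list of 4 values below. For SRSF5 XM_004370988 the normalized counts of the 4 libraries were 23.7, 31.2, 43.5 and 16.1. Over the 7 libraries they ran from 1.81 to 13.3 with a median of 6.83. The lowest of the 4 thus exceeded the highest of the 7. The recovery reached higher 4-library means than 7-library means. This row could therefore be followed only because its 7-library mean was the lower one, so the direction was set in advance. The means were 28.6 ± 11.7 (SD, n = 4) and 6.86 ± 4.06 (SD, n = 7), a log2 ratio of 2.06. With each library left out in turn the log2 ratio stayed between 1.79 and 2.31.

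SRSF7 XM_004369544, which could be followed only under the same unequal limits, was also apart, at a lower level. Its normalized counts were 12.2, 12.7, 8.06 and 10.8 in the 4 libraries, and from 0.905 to 7.51 with a median of 5.70 in the 7. All 4 lay above all 7, by a narrow margin. The means were 10.9 ± 2.07 (SD, n = 4) and 4.97 ± 2.13 (SD, n = 7), a log2 ratio of 1.14. Without any 1 library it lay between 0.95 and 1.26.

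The third SRSF row with reads of every library, SRSF10 XM_004377120, gave no such picture. Its 4 libraries held 1.28, 12.7, 6.45 and 0 normalized counts, and its 7 libraries 0 to 12.7 with a median of 2.52. The groups overlapped throughout (log2 ratio 0.18, exact permutation p = 0.858), and without the library of size factor 1.03 the ratio was -0.80.

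Reads in all 11 libraries were recovered for 11 member rows, all weakly counted, out of 4803 rows in the table. The recovery reached a 4-library mean of 100 but a 7-library mean of only 10. The SRSF5 and SRSF7 rows, with 4-library means above 10, could enter only because their 7-library means were lower, so they had to differ in this direction and no test is given for them. With both means limited to 10, a choice made after seeing the data, 9 members and 3892 rows remained. At an unadjusted exact permutation p under 0.05 there were 0 of the 9 members and 12% of the 3892 rows. No row passed 0.05 after the Benjamini-Hochberg adjustment in this test, and the smallest adjusted p of the members was 0.435. Among the 4803 rows, which the unequal limits shape in the same way, the groups were apart in 2.98%, and in 2.81% the 4 libraries were the higher ones. Nothing in the labels links a recovered library to an animal, and each is taken as a separate animal of its group.

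**Figure D3:**
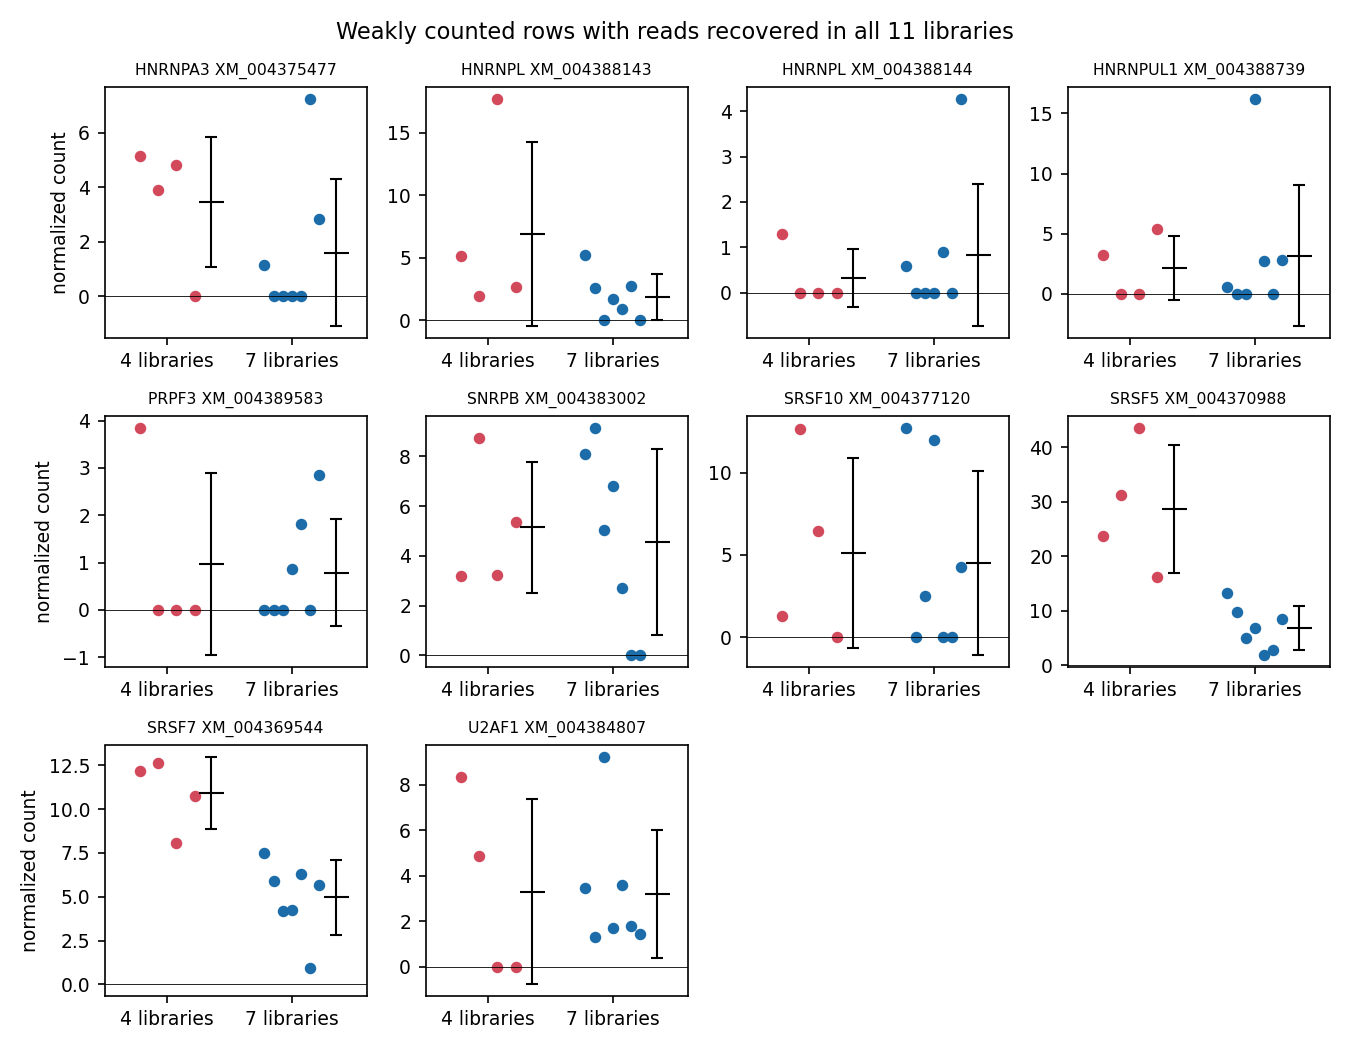
Each panel is 1 of 10 weakly counted rows with reads recovered in every library, with normalized counts on the vertical axis. Red points are the 4 libraries and blue points the 7 libraries, and black marks give the mean with its SD. The groups are apart for SRSF5 XM_004370988 and SRSF7 XM_004369544, and overlap in the other 8 panels. The SRSF5 and SRSF7 rows could enter only because their 7-library means were the lower ones, so their direction was set in advance.

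Among the 24 HNRNP rows, 11 (45.8%, against 33.8% of all rows) were higher in the 4-library mean by 1.5-fold or more. In the 7-library mean 1 (4.17%, against 20.2%) was higher by this fold. The highest ratio among all members was that of the weaker HNRNPDL row (XM_004383099), with a 4-library mean of 116 and a 7-library mean of 14.9 (log2 ratio 2.96, a 7.80-fold difference). HNRNPDL is a paralog of HNRNPD and is known to regulate the splicing of its own transcript. Its main row XM_004383098 had means of 1906 and 829 (1.20).

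HNRNPA1, a widely expressed repressor of exon use, was higher in both of its rows. The means were 1068 and 420 (XM_004373942, 1.35) and 107 and 31.8 (XM_004373941, 1.75). Mammalian genomes hold many near-identical copies of HNRNPA1, so reads of this gene may be split or lost in counting, and its values are uncertain to that extent.

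The HNRNPH family, which binds runs of G, leaned the same way. HNRNPH1 had means of 8771 and 4555 (log2 ratio 0.95) and HNRNPH2 of 3047 and 1745 (0.80), while HNRNPF of the same family had 1720 and 1303 (0.40). The HNRNPH3 row XM_004386400 held 71.8, 56.5, 25.8 and 43.0 normalized counts in the 4 libraries, each above the 7-library mean of 14.7. Its 4-library mean was 49.3 ± 19.6 (SD, n = 4), a log2 ratio of 1.74. The other HNRNPH3 row, XM_004386399, held 46.8, 33.1, 24.2 and 45.7, on either side of its 7-library mean of 32.4 (log2 ratio 0.21).

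HNRNPK, a protein that binds runs of C, held 39.8, 51.6, 32.2 and 32.3 normalized counts in the 4 libraries, each above the 7-library mean of 21.4 (log2 ratio 0.86). HNRNPU, the scaffold attachment factor, differed by row, with means of 238 and 147 in XM_004375867 (0.69) and 289 and 298 in XM_004375866 (-0.04).

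A further group of hnRNP rows lay near equal means. HNRNPC, which binds poly-U tracts, had 1840.4 and 1552 (log2 ratio 0.25), HNRNPM 112 and 92.8 (0.27), HNRNPR 522 and 442 (0.24), and HNRNPA0 302 and 299 (0.01). HNRNPAB held 71.8, 52.6, 41.9 and 26.9 in the 4 libraries around a 7-library mean of 46.2 (0.07). HNRNPUL2 was the lower one in the 4-library mean, with 391 against 521 (-0.42), as was HNRNPUL1 XM_004388737 with 42.6 against 47.1 (-0.15).

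Weak hnRNP rows rested on single libraries. HNRNPL XM_004388143, a regulator of CD45 splicing in T cells, held 5.13, 1.95, 17.7 and 2.69 normalized counts in the 4 libraries and 0 to 5.20 with a median of 1.71 in the 7. A single library lay above all 7, and the others fell among them. The log2 ratio was 1.87 (exact permutation p = 0.0545, adjusted p = 0.245 over the 4803 rows and 0.435 with equal limits), and 0.79 without the library of size factor 0.620. The other HNRNPL row, XM_004388144, rested on 2 reads in the 4 libraries and 5 in the 7. The ratio of the 7-library to the 4-library mean was 2.56, and its 95% Poisson interval ran from 0.71 to 21.2, counting error only. Without the 7-library member of size factor 0.702 its log2 ratio turned from -1.36 to 0.38.

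HNRNPA3 XM_004375477 held 5.13, 3.89, 4.84 and 0 in the 4 libraries, and 4 of the 7 libraries held no read while another held 7.24. The groups overlapped (log2 ratio 1.11, exact permutation p = 0.282), and without that last library the ratio was 2.38. In the main HNRNPA3 row, XM_004375476, the 4 libraries held 14.8, 4.87, 32.2 and 35.0 around a 7-library mean of 16.7. HNRNPUL1 XM_004388739 had 7 reads in the 4 libraries and 25 in the 7, of which 19 came from the library of size factor 1.17 (log2 ratio -0.57, exact permutation p = 0.882). Without that library the ratio was 1.07, and leaving out the 4-library member of size factor 0.372 gave -1.58.

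The U2 snRNP recognises the branch point of the intron, and its proteins come from both the SNRP and the SF3 classes. This grouping by particle was made after the values had been seen. Of 7 rows, 5 (71.4%, against 33.8% of all rows) were higher in the 4-library mean by 1.5-fold or more. In the 7-library mean 1 (14.3%, against 20.2%) was higher by this fold. SF3B1, the subunit that clamps the branch point and is often mutated in myelodysplastic syndromes, had means of 26645 and 14633 (log2 ratio 0.86). SF3B6, which touches the branch point adenosine, had 1038 and 555 (0.90). SNRPA1 had 435 and 186 (1.22) and SNRPB2 1319 and 621 (1.09), both of them specific U2 proteins.

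SF3B4 held 23.1, 18.5, 25.8 and 56.5 normalized counts in the 4 libraries, each above the 7-library mean of 18.2, the lowest by little (log2 ratio 0.77). SF3B3, a large scaffold of the SF3B complex, had near equal means of 1472 and 1456 (0.02). SF3A2 was lower in the 4-library mean. Its 4 libraries held 32.7, 1.95, 12.9 and 26.9, and the 7-library mean was 29.5, which lay within their range (log2 ratio -0.67, or -0.29 without the library of size factor 1.03).

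U2AF2 and U2AF1, the large and small subunits of the factor that binds the 3′ splice site, had near equal means in 3 of 4 rows. U2AF2 had 333 and 323 (log2 ratio 0.05). The main U2AF1 row, XM_004384805, held 30.1, 26.3, 16.1 and 18.8 in the 4 libraries around a 7-library mean of 19.4 (0.23). U2AF1 XM_004384807 held 8.34, 4.87, 0 and 0 in the 4 libraries and 1.31 to 9.23 with a median of 1.81 in the 7 (0.04, exact permutation p = 0.985). Without the library of size factor 1.56 its log2 ratio was -0.99.

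The third U2AF1 row, XM_004384806, differed most of all member rows. It had 1 read in the 4 libraries together, from the library of size factor 1.56, and a 7-library mean of 8.57 normalized counts. The reads of the 7 libraries could not be fixed, since 2 combinations gave that mean. They held 71 and 70 reads, from 6 and 7 of the 7 libraries, and no library held more than 29.0 normalized counts in either. The ratio of the 7-library to the 4-library mean was 53.4, and its 95% Poisson interval ran from 9.59 to 2110 from the single read, counting error only. The row made up 27.4% of the summed U2AF1 level in the 7-library means and 0.610% in the 4-library means, while the summed level itself was 31.2 and 26.3. No spread between libraries can be given for this row, so the difference has no replicate test.

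Most proteins of the Sm ring, a part of many spliceosomal snRNPs, were higher in the 4-library mean. SNRPD1 had means of 917 and 475 (log2 ratio 0.95), SNRPF 543 and 298 (0.87) and SNRPG 266 and 112 (1.25). SNRPD3 held 97.5, 81.8, 79.0 and 64.6 in the 4 libraries, each well above the 7-library mean of 44.2 (0.87). SNRPE, a partner of SNRPF and SNRPG in the ring, was the exception with 261 against 479 (-0.88). Near-identical copies of small Sm genes are common in mammals, and such copies could take reads from these rows.

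The SNRPB rows, which code for the ring proteins B and B′, were weak. XM_004383003 held 21.8, 12.7, 8.06 and 5.38 in the 4 libraries around a 7-library mean of 8.43 (log2 ratio 0.51). XM_004383002 held 3.21, 8.76, 3.22 and 5.38 in the 4 libraries and 0 to 9.15 with a median of 5.03 in the 7 (0.18, exact permutation p = 0.785, or -0.21 without the library of size factor 1.03). Of the ring's 7 rows, 4 (57.1%, against 33.8% of all rows) were higher in the 4-library mean by 1.5-fold or more. In the 7-library mean 1 (14.3%, against 20.2%) was higher by this fold.

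SNRPA and SNRPC, the U1 proteins A and C that take part in recognising the 5′ splice site, differed less. SNRPA held 46.2, 34.1, 21.0 and 64.6 around a 7-library mean of 33.6 (log2 ratio 0.30). SNRPC held 49.4, 47.7, 41.9 and 96.8 around 46.0 (0.36), so that its higher mean came from the library of size factor 0.372.

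The Lsm ring of U6 snRNA had its ratios on both sides of equal means. Of its 6 rows, LSM7 alone (16.7%, against 33.8% of all rows) was higher in the 4-library mean by 1.5-fold or more. LSM4 alone (16.7%, against 20.2%) was so in the 7-library mean, and the ring's median log2 ratio was -0.08. The ring's median overall mean was 110, and at an overall mean of at least 100 the shares of all rows were 18.5% and 20.5%. LSM7 held 39.8, 33.1, 24.2 and 35.0, each above the 7-library mean of 21.3 (0.63, or 0.53 without the library of size factor 1.56). LSM6 held 93.7, 84.7, 90.3 and 105, a narrow range that lay wholly above the 7-library mean of 79.8 (0.23).

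LSM4 held 43.6, 33.1, 3.22 and 8.07 around a 7-library mean of 33.2 (log2 ratio -0.59). The ratio was -0.23 without the library of size factor 0.620 and -1.17 without that of 1.56. LSM3 had means of 264 and 272 (-0.04), LSM5 of 174 and 198 (-0.19) and LSM8 of 129 and 139 (-0.11). LSM12, which is not a ring member of U6, had 181 and 208 (-0.20).

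The PRPF genes are named after yeast mutants in pre-mRNA processing and serve several particles. Of 12 rows, 4 (33.3%, against 33.8% of all rows) were higher in the 4-library mean by 1.5-fold or more. In the 7-library mean 1 (8.33%, against 20.2%) was higher by this fold. The 12 rows had a median overall mean of 180, against 34.3 over all rows. At an overall mean of at least 100 the shares of all rows were 18.5% and 20.5%. In the U4/U6.U5 tri-snRNP none of 5 rows passed the fold in either direction, against 33.8% and 20.2% of all rows. So few rows do not set it apart from the table at large. PRPF8, the large protein at the catalytic centre, had means of 1246 and 1634 (log2 ratio -0.39). PRPF31 had 381 and 259 (0.56), just under the fold of 1.5. PRPF4 held 62.2, 72.0, 35.5 and 80.7 around a 7-library mean of 54.4 (0.20), and PRPF6 held 69.9, 40.9, 30.6 and 26.9 around 47.8 (-0.18). PRPF3 rested on 6 reads of a single library and 5 reads of the 7 (0.29, exact permutation p = 0.936).

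The U1-associated PRPF genes went in different directions. PRPF39 had 2649 and 1738 (log2 ratio 0.61). PRPF40B held 6.41, 10.7, 6.45 and 16.1, each below the 7-library mean of 18.2 (-0.88, and -1.21 to -0.72 with 1 of the 4 left out).

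The remaining PRPF genes act elsewhere in the cycle. PRPF38B had means of 1360 and 894 (log2 ratio 0.61), just past the fold of 1.5, and PRPF38A, of the B complex, had 383 and 350 (0.13). PRPF18, which acts in the second step of splicing, had 379 and 480 (-0.34).

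The 4 libraries could be told apart in 32 member rows, those with a 4-library mean of at most 100 and a single combination of reads. This limit favours rows that are low in the 4-library mean. Each of the 4 lay above the 7-library mean in 9 of them (28.1%), and 10.6% of the 10145 rows of this kind in the table did so. The sets were not matched for level, with a median overall mean of 19.6 over the 32 rows and 9.99 over the 10145. A row with no read in 1 of the 4 libraries cannot have each of them above. Each lay below in 2 (6.25%), PRPF40B and the U2AF1 row XM_004384806, against 17.8% of those rows. In the other 21 the 7-library mean fell within the range of the 4. The spread among the 4 libraries was wide, with a median coefficient of variation of 51.0% over the 32 rows.

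The highest counts of the 32 rows were not spread evenly over the 4 libraries. The library of size factor 1.56 held the highest normalized count in 15 of the 32 rows (46.9%), against 18.3% of the 10145 rows, and the lowest in 2 (6.25%), against 35.2%. A single read gives a higher normalized count in a library of smaller size factor, and the 10145 rows were the weaker set. The shares of the 2 sets therefore cannot be compared directly. The library of size factor 0.620 was the lowest of the 4 in 12 rows (37.5%, against 19.2%). Libraries that tied for the lowest, as where several held no read, were counted under the largest size factor among them. The numbers and shares for the lowest library depend on this order, so nothing is concluded from them. Without each library in turn, the median log2 ratio of the 32 rows, which was 0.26, lay between 0.28 and 0.37. The number higher in the 4-library mean by 1.5-fold or more, which was 11, lay between 10 and 13. The number higher in the 7-library mean, which was 5, became 8 without the library of size factor 1.56 and 3 without that of 0.620.

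**Figure D4:**
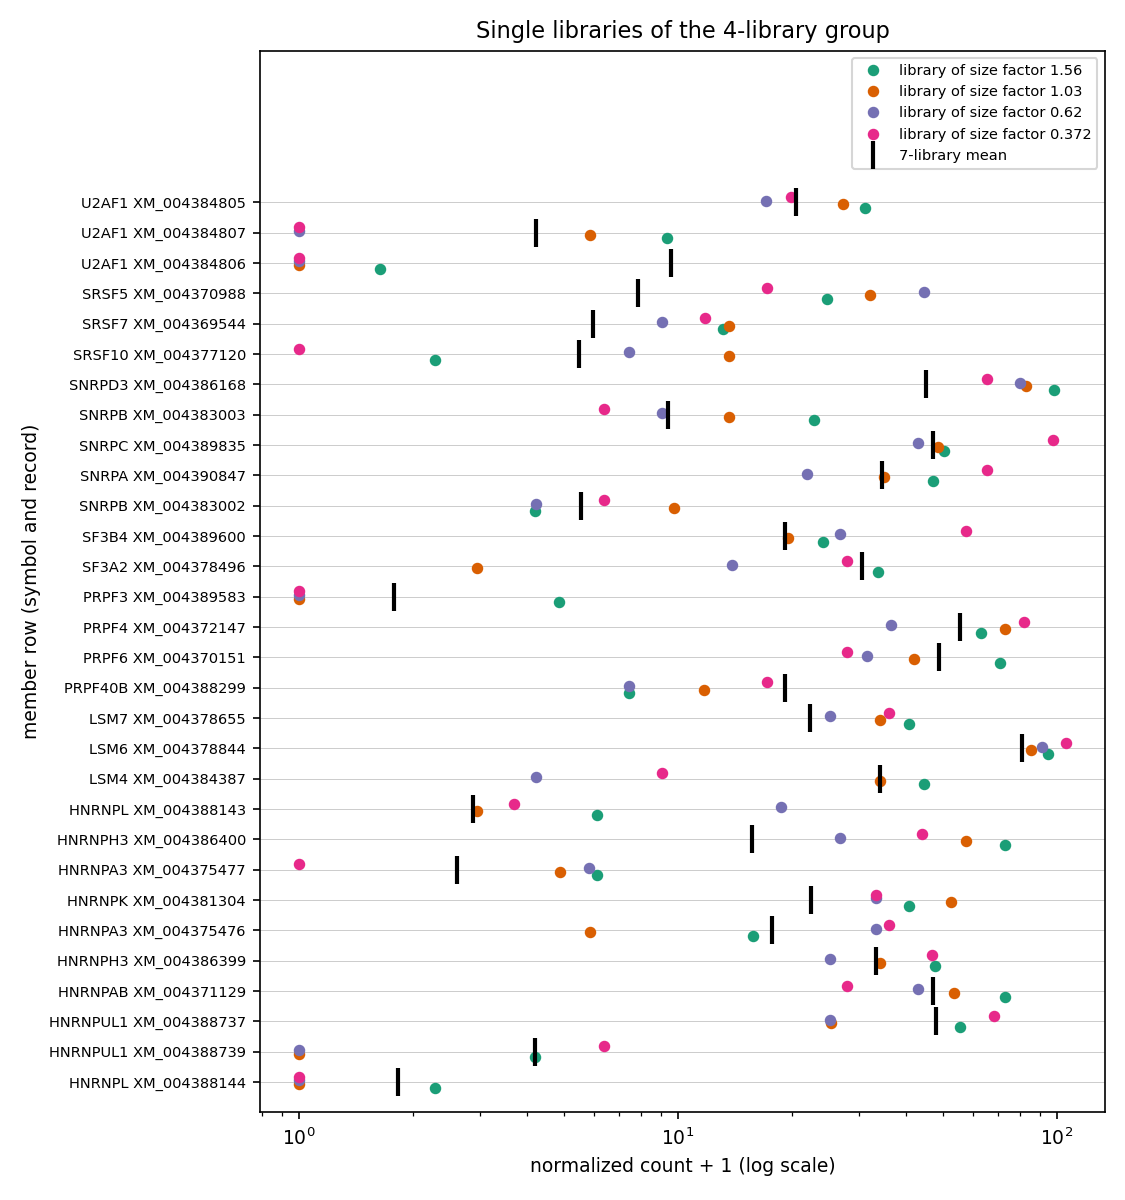
Each line is 1 of 30 member rows with recovered reads, with the normalized count plus 1 on a log axis. Coloured points are the 4 libraries, named by size factor, and the black bar is the 7-library mean. All 4 points lie to the right of the bar in 9 rows, among them SRSF5, SRSF7, SNRPD3, HNRNPH3 XM_004386400 and HNRNPK, and to the left of it in 2.

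Transcript records of the same gene did not always agree in level. Among the 13 genes with several rows, the log2 ratios of the rows lay 1 or more apart in 5, HNRNPDL, HNRNPH3, HNRNPL, SRSF10 and U2AF1. SRSF10 XM_004377118 made up 7.70% of the gene's summed level in the 4-library means and 15.1% in the 7-library means. HNRNPH3 XM_004386400 made up 56.8% of the 4-library sum and 31.3% of the 7-library sum. HNRNPDL XM_004383099 made up 5.74% and 1.76%. The SRSF5 and SRSF7 rows differed by 0.15 and 0.02 in log2 ratio. How reads shared by records of 1 gene were assigned is not given in the sources used here, so these shares describe counted reads and not splice forms.

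**Figure D5:**
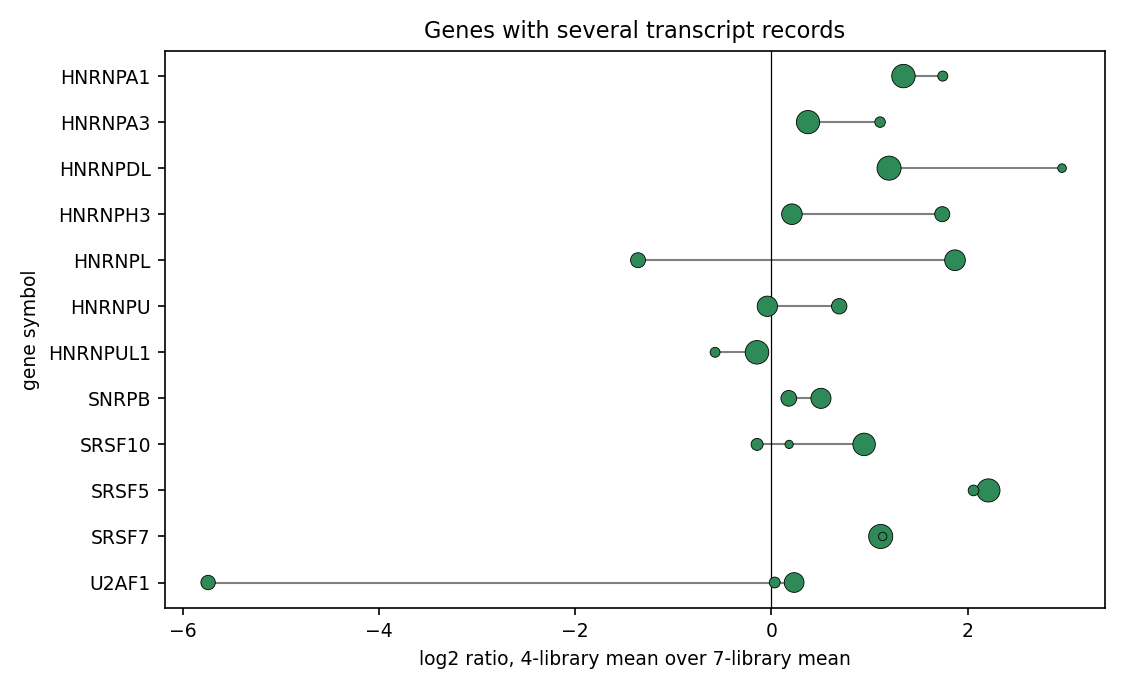
Each point is a transcript record of 1 of 12 genes with several rows, and the horizontal axis gives its log2 ratio, 4-library over 7-library mean. Point size grows with the record's share of the gene's 7-library level, and a line joins the records of a gene. The records of SRSF7 lie 0.02 apart and those of U2AF1 5.97.

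Lists of other splicing genes were counted in the same way, and the genes named from them were picked after their values had been seen. Of 49 rows of other spliceosome components, 18 (36.7%, against 33.8% of all rows) were higher in the 4-library mean by 1.5-fold or more. In the 7-library mean 6 (12.2%, against 20.2%) were so (median log2 ratio 0.31). The sets were not matched for level, with a median overall mean of 293 over the 49 rows and 34.3 over all rows. At an overall mean of at least 100 the shares of all rows were 18.5% and 20.5%. The helicases DHX15 (6168 and 1996, 1.63) and DHX8 (2005 and 820.4, 1.29), which release spliced products, were among the 18. Of 41 rows of other splicing regulators, 20 (48.8%, against 33.8% of all rows) were higher in the 4-library mean by this fold. In the 7-library mean 3 (7.32%, against 20.2%) were so (median 0.55). The 20 included SFPQ with 9692 and 3948 (1.30) and TRA2B, an SR-like protein, with 3754 and 2275 (0.72).

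Of 5 kinases that phosphorylate SR proteins, CLK4 alone (20%, against 33.8% of all rows) was higher in the 4-library mean by 1.5-fold or more. None (against 20.2%) was so in the 7-library mean. CLK4 had means of 5465 and 1970.0 (log2 ratio 1.47). CLK1 had 4671 and 5136 (-0.14) and SRPK2 1865 and 2605 (-0.48). The SMN complex and its partners, which load Sm rings onto snRNA, had 10 rows. Of these, 3 (30%, against 33.8% of all rows) were higher in the 4-library mean by 1.5-fold or more and 1 (10%, against 20.2%) in the 7-library mean. The 3 were STRAP (1316 and 428, 1.62), DDX20 (1645 and 575, 1.52) and GEMIN4 (360 and 159, 1.17), and the other was CLNS1A (336 and 633, -0.92). The median overall mean was 2335.5 over the kinases and 129 over the SMN rows, against 34.3 over all rows. At an overall mean of at least 100 the shares of all rows were 18.5% and 20.5%.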

How the data were processed

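RNA-seq libraries came from buffy coats of 4 red tide animals and 7 controls. The authors cleaned reads with Cutadapt, mapped them with Bowtie2 to TriManLat1.0, and after removal of duplicates counted unique hits by gene and ran DESeq. For the annotation release, the sources used here give none. Each deposited signal is the mean of counts divided by size factors. The authors' fold change (a ratio), its log2 value and their p-value and adjusted p-value were not used. There were 0 unused columns of single samples.

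Records were matched to RefSeq symbols without version number, 10080 of 15298 rows, 5 of the 76 member rows also with it. The overall mean was a weighted mean of both group means, with weights of 4 and 7, to a relative deviation of 3.34e-09. What 1 read of each library adds to a mean was found from the lowest means and refined by least squares. Whole reads were then searched up to a 4-library mean of 100 and a 7-library mean of 10, within 1.1 rounding half-widths, and kept where a single combination was found (10145 of 10159 rows and 4819 of 5439). The procedure was tested on simulated data. Size factors ran from 0.372 to 1.73. Library totals are unknown.

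The group comparison used a fold of 1.5 and no test. Rows with all 11 libraries had an exact two-sided permutation test, adjusted over all 4803 such rows in place of the planned adjustment over the members, and again over the 3892 with both means at most 10. Alternatives were a mean of at least 10, a row per gene, centring, a pseudocount of 1, a fold of 2 and each library left out. The 38 rows of the naming rule were the highest and lowest ratio and highest mean in each class, rows past 2-fold and rows with reads in all libraries. Members outside the rule are also given, and 1 gene of the rule, included in the counts, is not reported here. Members and lists were chosen with earlier results of these data known. Intervals cover counting error only. Python 3.11.15, numpy 2.4.6, scipy 1.17.1 and pandas 2.3.3 were used.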

Additional observations from a re-analysis of the deposited data

Results flagged for a closer look

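Of 43 groups of libraries with recovered reads, 8 held a library farther from the others than Dixon's 95% critical value allows. For normally distributed values, chance alone gives such a library in about 1 in 20 groups. Low read counts are not distributed in this way, so the number flagged cannot be set against that rate. A row with reads in a single library of its group meets this rule by construction. In the 4-library group, the library of size factor 1.56 held the reads of HNRNPL XM_004388144 (1.28 normalized counts), PRPF3 (3.85) and U2AF1 XM_004384806 (0.641), and the others held none. For SNRPC the library of size factor 0.372 held 96.8, and the next highest 49.4. In the 7-library group, the highest library held 7.24 for HNRNPA3 XM_004375477 (next 2.85), 4.27 for HNRNPL XM_004388144 (next 0.904), 16.2 for HNRNPUL1 XM_004388739 (next 2.85) and 9.23 for U2AF1 XM_004384807 (next 3.61). These were 4 different libraries of the 7.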

How the results depend on the processing

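Group means, with no replicate error, limit most member rows, and a fold past the threshold is a description of these libraries. Of the recomputed medians and counts, 64 stayed within the spread between libraries or within 1.5 times, and 8 did not. With a fold of 2 in place of 1.5, 15 members were higher in the 4-library mean and 2 in the 7-library mean. At an overall mean of at least 100, chosen after seeing the data, these numbers were 19 and 1 at a fold of 1.5. Centred on the median of all rows they were 27 and 7. The members with each of the 4 libraries below the 7-library mean fell from 2 to 1 at a mean of at least 10 and with a row per gene. Without 1 library, also added later, the members with recovered reads past the fold in the 7-library mean ranged from 3 to 8. With 1 library left out, the log2 ratio changed sign in 5 of 18 named rows, all weakly counted: HNRNPL XM_004388144, HNRNPUL1 XM_004388739, SNRPB XM_004383002, SRSF10 XM_004377120 and U2AF1 XM_004384807. No paired analysis was possible because the recovered libraries carry no replicate numbers.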

Other observations

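Several proteins counted among the hnRNPs carry symbols outside the families above, and they were picked here after their values had been seen. SYNCRIP, also called hnRNP Q, had a 4-library mean of 12.4 and a 7-library mean of 1.89 normalized counts (log2 ratio 2.72), both low. PCBP1, or hnRNP E1, was lower in the 4-library mean, with 632 against 945 (-0.58), and PCBP2, or hnRNP E2, had 506 and 491 in its main row XM_004373970 (0.04). PTBP3, a relative of hnRNP I, had 2090.4 and 1772 in its main row XM_004372161 (0.24). The helicases DDX5 and DDX17, partners in splicing, differed in direction, with 48257 and 21566 (1.16) against 4562 and 6591 (-0.53). These are group means with no replicate error.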
